A study of Mus musculus with 8 samples.

Results

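The transcripts described here encode 10 surface receptors for growth factors: the GDNF receptors Gfra1, Gfra2 and Ret, the EGF-family receptors Egfr and Erbb4, the FGF receptors Fgfr1, Fgfr2 and Fgfr3, and the neurotrophin receptors Ntrk2 and Ntrk3. They were chosen by name, and all 10 were found among the 19787 genes of the count matrix. All mice were C57BL/6 wild type, and nuclei came from the low thoracic spinal cord. In experiment 1, uninjured cord was sorted into nuclei of GFP-labelled neurons, called traced (2 libraries), and GFP-negative nuclei, called untraced (2 libraries). Experiment 2 compared cord after hemisection, a cut through one side of the cord, in 2 libraries with an uninjured control in 1 library. Experiment 3 held GFP-labelled neurons that had regenerated, in 1 library. The labels give neither the age of the mice nor the interval after injury, and they do not say how GFP was delivered or whether animals were pooled.

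GDNF and its relatives bind a GFRα co-receptor anchored in the membrane, and the complex activates the kinase RET. EGF, neuregulins, FGFs and neurotrophins bind kinases directly, and all of these kinases signal through the ERK, PI3K and phospholipase C pathways. In the spinal cord, GDNF and the neurotrophins BDNF and NT-3 are known as survival and growth factors of motor and sensory circuits, and FGF and neuregulin signals act on glia as well as neurons.

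For 12447 nuclei in 8 libraries the matrix gives UMI counts, where each UMI stands for 1 captured RNA molecule. Of these, 4076 are neurons in 28 subtypes, and the rest fall into 5 further classes: oligodendrocytes, microglia, astrocytes, oligodendrocyte precursors (OPC) and vascular cells. Neurons per library numbered from 25 (traced replicate 2) to 2148 (the uninjured library), with a median depth between 5767 and 16489.5 UMIs in 7 libraries. The regenerating library stood apart with 238 neurons at a median of 488 UMIs. All 7 neuron markers were detected in the neurons of every library, with a summed level from 3555 to 4333 CPM, counts scaled to 1000000 UMIs. The uninjured library of experiment 2 stood apart in another way: summed oligodendrocyte markers (8 genes) reached 727 CPM in its neurons, against 72.0 to 254 CPM in the neurons of the other 7 libraries. Its non-neuronal nuclei carry names without a barcode sequence, while its neurons carry one, and all 238 regenerating neurons also lack one. Of the names with a sequence, 4 of 7716 sequences in the series occur in more than 1 library.

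Levels are given as CPM of the UMIs of a cell type, and as the share of nuclei with at least 1 UMI. Cell types were defined on all genes, so differences between them are described without a test. The 24 neuron subtypes and 5 classes with at least 20 nuclei in some library are ordered by their level in all libraries together, and ranges are over libraries with at least 20 nuclei of that type. Subtype names are those of the deposited annotation. Names that start with DE, MEP, VEL or VEP carried the glutamate transporter gene Slc17a6 at 207 to 263 CPM and are called excitatory here, and names that start with DI, MIL, MIP, VIL or VIP carried it at 6.54 to 52.1 CPM and the GABA synthesis gene Gad2 at 87.7 to 257 CPM, and are called inhibitory.

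**Figure D1:**
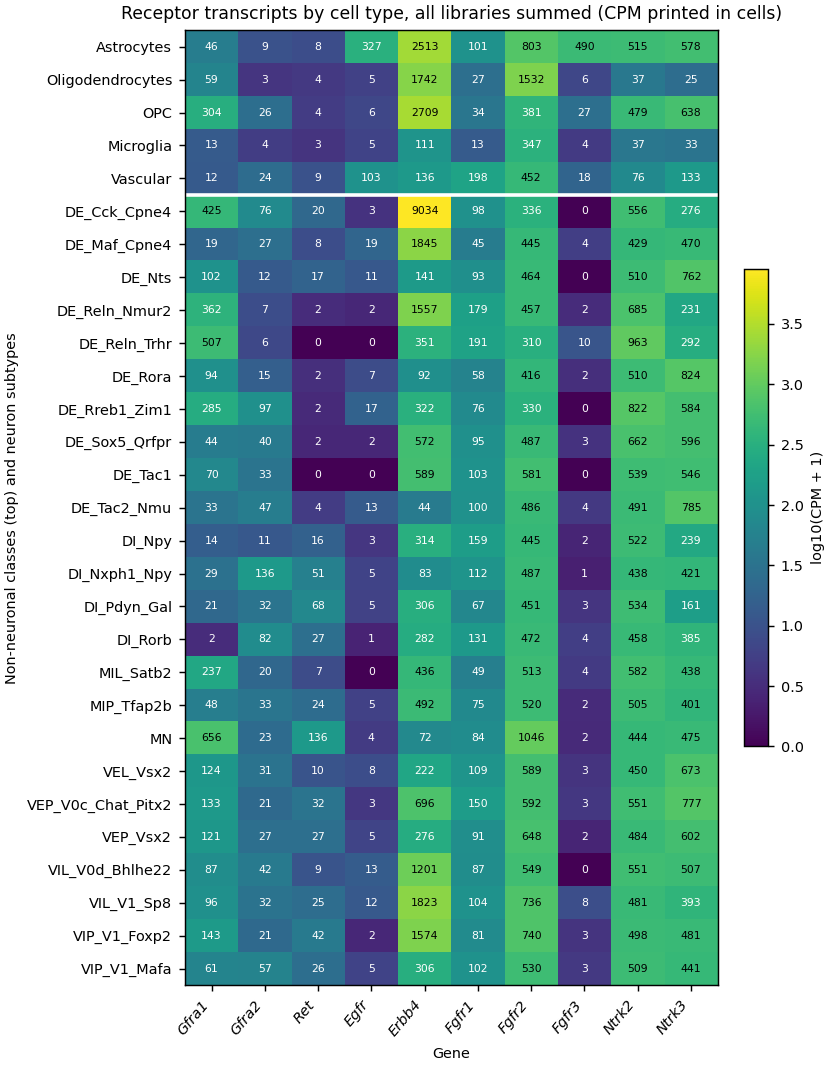
CPM of each receptor (columns) in the 5 non-neuronal classes (above the white line) and 24 neuron subtypes (below it), all libraries summed; colour is log10(CPM + 1) and the printed number is CPM. Egfr and Fgfr3 are high in astrocytes, Erbb4 stands out in DE_Cck_Cpne4, and Fgfr2 lies at 310 CPM or above in every row.

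Gfra1, the main co-receptor of GDNF, was highest in the MN subtype at 656 CPM. These 28 nuclei carried the motor neuron marker Chat at 238 CPM, against 4.76 CPM in the other neurons, and Isl1 at 46.8 CPM against 0.923 CPM. Every one of them held a Gfra1 UMI at a median depth of 18181 UMIs (28 of 28, exact 95% interval 87.7% to 100%), and after thinning to 1000 UMIs per nucleus the share was 42.9%. In microglia, taken as the background class, the share was 2.69% at a median depth of 2128 UMIs and 1.02% after thinning. The excitatory subtypes DE_Reln_Trhr (507 CPM), DE_Cck_Cpne4 (425 CPM) and DE_Reln_Nmur2 (362 CPM) followed. OPC came next at 304 CPM, with 268 and 334 CPM in untraced replicates 1 and 2, 348 CPM in hemisection replicate 2 and 303 CPM in the uninjured library. The library ranges of DE_Cck_Cpne4, DE_Reln_Nmur2 and OPC overlapped each other, and MN and DE_Reln_Trhr had 1 library of sufficient size. The lowest level was 2.23 CPM in the inhibitory subtype DI_Rorb (3 UMIs).

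Gfra2, the co-receptor that prefers neurturin, had another order. Its level was highest in the inhibitory subtype DI_Nxph1_Npy at 136 CPM, with 101 CPM in untraced replicate 1, 156 CPM in hemisection replicate 1 and 136 CPM in the uninjured library. DE_Rreb1_Zim1 (96.5 CPM) and DI_Rorb (81.9 CPM) followed, with overlapping library ranges. DI_Rorb, lowest for Gfra1, was thus among the highest for Gfra2. Oligodendrocytes were lowest at 3.10 CPM, and MN stood at 23.4 CPM.

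Ret, the kinase shared by these co-receptors, was also highest in MN at 136 CPM, where 75% of nuclei held a UMI (21 of 28, exact interval 55.1% to 89.3%) and 14.3% did after thinning. The inhibitory subtype DI_Pdyn_Gal came next at 68.2 CPM, with 58.1 CPM in untraced replicate 1, 67.6 CPM in hemisection replicate 1 and 72.7 CPM in the uninjured library. This range did not overlap that of DI_Nxph1_Npy, next at 51.0 CPM (32.3 to 54.5 CPM). In microglia 0.672% of nuclei held a Ret UMI, and 0.392% did after thinning. Across all neurons 594 nuclei had a Ret UMI, and 39.7% of them also had Gfra1 and 29.0% Gfra2, against 34.6% and 21.1% of all neurons. Neurons with Ret were also deeper, with a median of 10956 against 8302 UMIs. The share of Ret-positive neurons with Gfra1 was above that of all neurons in 5 of the 8 libraries, and close to it in 2 of these, hemisection replicate 2 (37.5% against 37.0%) and untraced replicate 1 (34.1% against 33.6%). It was below in hemisection replicate 1 (25.4% against 31.2%, 122 Ret-positive neurons) and untraced replicate 2 (14.3% against 26.8%, 7 neurons), and none of the 2 Ret-positive regenerating neurons had Gfra1 (0).

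Erbb4, a receptor for neuregulins, had its highest level in DE_Cck_Cpne4, at 9034 CPM. It measured 8992 CPM in hemisection replicate 1 and 7810 CPM in the uninjured library, above the range of every other cell type. A UMI was found in 98.2% of its 114 nuclei, and in 95.1% after thinning, against 14.9% and 7.85% of microglia. OPC followed at 2709 CPM and astrocytes at 2513 CPM, with overlapping library ranges of 2471 to 2995 CPM and 2460 to 2834 CPM. The excitatory subtype DE_Maf_Cpne4 (1845 CPM), the inhibitory subtype VIL_V1_Sp8 (1823 CPM) and oligodendrocytes (1742 CPM) came next. Erbb4 was lowest in DE_Tac2_Nmu at 43.9 CPM and reached 72.1 CPM in MN.

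Egfr, the receptor of EGF and TGFα, was mostly an astrocyte transcript. It measured 291 CPM in astrocytes of untraced replicate 1 and 338 CPM in those of the uninjured library. Vascular cells followed at 103 CPM, and no neuron subtype exceeded 18.7 CPM (DE_Maf_Cpne4). A UMI was found in 60.1% of astrocytes at a median depth of 4037 UMIs and in 1.59% of oligodendrocytes at 3072 UMIs, and after thinning in 24.9% and 0.581%.

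Fgfr3, an FGF receptor known for its place in astrocytes and their precursors, shared this pattern. It measured 517 CPM in astrocytes of untraced replicate 1 and 493 CPM in those of the uninjured library. OPC came next at 26.8 CPM (0 to 31.3 CPM over 4 libraries), a range that did not overlap that of astrocytes. Neuron subtypes lay between 0 and 10.1 CPM. The share of astrocytes with a UMI was 78.5%, against 1.80% of oligodendrocytes, and after thinning 39.6% against 0.581%. Over 25 cell types with at least 50 nuclei, Egfr and Fgfr3 correlated at r = 0.79 on the log2(CPM + 10) scale, a description over types that share libraries and depth.

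RefSeq promoters of build GRCm38.p6, from 250 bases before to 50 after an annotated start, were matched for 6 of the 10 genes (7 promoters). Those of the receptors highest in astrocytes are shown because both genes are highest in the same cell type. Capitals mark the GC box GGGCGG on either strand, the core of an Sp1 site. Of 2 annotated Fgfr3 starts the upstream one is shown. It lies at chr5:33721474-33721773 on the plus strand, and the Egfr promoter at chr11:16751953-16752252 on the plus strand.
Fgfr3: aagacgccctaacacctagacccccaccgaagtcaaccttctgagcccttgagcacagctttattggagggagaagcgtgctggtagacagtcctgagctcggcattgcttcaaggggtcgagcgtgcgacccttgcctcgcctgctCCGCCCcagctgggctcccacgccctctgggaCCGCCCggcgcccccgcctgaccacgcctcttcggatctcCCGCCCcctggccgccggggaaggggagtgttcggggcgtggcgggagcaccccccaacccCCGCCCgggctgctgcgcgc
Egfr: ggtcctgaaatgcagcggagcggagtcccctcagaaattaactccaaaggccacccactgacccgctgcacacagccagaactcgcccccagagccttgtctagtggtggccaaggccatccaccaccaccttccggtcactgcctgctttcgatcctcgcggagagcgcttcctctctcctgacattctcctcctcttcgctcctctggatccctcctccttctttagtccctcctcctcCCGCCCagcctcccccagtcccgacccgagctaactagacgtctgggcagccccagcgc
The Fgfr3 promoter shown holds 4 GC boxes and is 69.7% G or C, and the other, at chr5:33722056-33722355, holds 2 and is 73.0% G or C. The Egfr promoter holds 1 and is 62.3% G or C. A GC box is present in 35.66% of all 32851 promoters of this length. The sequence TTGGCA, the core of a site for NFI factors, which act in astrocyte development, was found on neither strand of the 7 promoters, and 14.12% of all promoters hold it. No entry was found for Gfra2, Ret, Fgfr1 and Ntrk3.

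Fgfr1 was found in all 24 neuron subtypes. It was highest in vascular cells at 198 CPM, and neuron subtypes lay between 45 CPM in DE_Maf_Cpne4 and 191 CPM in DE_Reln_Trhr. DE_Reln_Nmur2, next at 179 CPM, ranged from 116 to 261 CPM over 5 libraries, so that the leading neuron subtypes were not separated beyond the spread between libraries. Microglia were lowest at 12.5 CPM.

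Fgfr2 was highest in oligodendrocytes, where it measured 1630 and 1308 CPM in untraced replicates 1 and 2, 1150 and 1038 CPM in hemisection replicates 1 and 2 and 1594 CPM in the uninjured library. MN followed at 1046 CPM and astrocytes at 803 CPM. No cell type fell below 310 CPM, and microglia stood at 347 CPM with a UMI in 47.2% of nuclei. The annotation limits the Fgfr2 level: in GENCODE M21 (GRCm38) the Fgfr2 gene spans chr7:130162451-133123350 on the minus strand, or 2960.9 kb, because of 1 long transcript, whereas the second longest spans 103.813 kb and the RefSeq gene 104.358 kb. This span covers 30 other coding genes, 14 of them on the same strand, while the other 9 receptors overlap no other coding gene (0). The 10 same-strand genes present in the matrix had a median of 0.593 CPM in neurons (0.138 to 75.6 CPM), and the 16 on the opposite strand had a median of 19.4 CPM (0.110 to 109 CPM). The sources used here do not name the annotation behind the counts, so molecules of Fgfr2 and of the genes within its span cannot be told apart, and their part in the Fgfr2 counts was not tested.

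**Figure D2:**
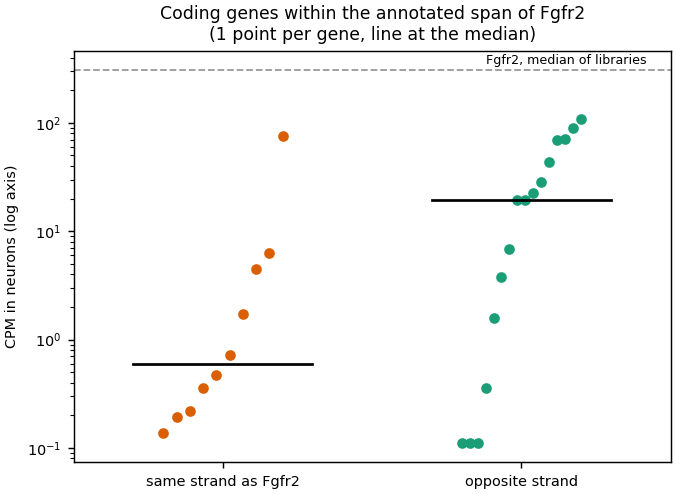
CPM in neurons (log axis) of the coding genes inside the annotated span of Fgfr2, 1 point per gene, by strand relative to Fgfr2, with black lines at the medians (0.593 and 19.4 CPM). The dashed line is the median of the Fgfr2 level over the 8 libraries, which lies above every point.

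Ntrk2, the receptor of BDNF, was a general neuronal transcript. The 24 neuron subtypes lay between 429 CPM (DE_Maf_Cpne4) and 963 CPM (DE_Reln_Trhr), with DE_Rreb1_Zim1 second at 822 CPM. Astrocytes (515 CPM) and OPC (479 CPM) lay within this range. Oligodendrocytes and microglia were lower, at 37.0 and 36.6 CPM. The neurons named CSF-N, 42 nuclei with fewer than 20 in every library and so outside the 24 subtypes, measured 124 CPM. A UMI was found in 85.8% of neurons and 6.72% of microglia, and in 36.6% and 2.67% after thinning.

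Ntrk3, the receptor of NT-3, was more graded among neurons. It was highest in DE_Rora (824 CPM) and DE_Tac2_Nmu (785 CPM) and lowest in DI_Pdyn_Gal at 161 CPM. DI_Pdyn_Gal measured 145 CPM in untraced replicate 1, 110 CPM in hemisection replicate 1 and 164 CPM in the uninjured library. These 3 values lay below the range of 718 to 1559 CPM of DE_Tac2_Nmu, whose highest value is that of the shallow regenerating library (17 UMIs). OPC (638 CPM) and astrocytes (578 CPM) were again close to neurons, and oligodendrocytes were lowest at 25.4 CPM. Over the 25 cell types Ntrk2 and Ntrk3 correlated at r = 0.81, with oligodendrocytes and microglia low for both genes.

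The 3 genes most like each receptor over the same 25 cell types were taken by Pearson r of log2(CPM + 10) among 8114 genes. For Ret these were Lrtm1 (0.86), Cacna2d3 (0.82) and Ndrg4 (0.79). For Egfr they were Acss3 (0.94), Enpep (0.92) and Gli3 (0.91), and for Fgfr3 Ppp1r3c (0.97), Tlcd1 (0.96) and Hey2 (0.96). For Gfra1 they were Frmpd1 (0.70), Reln (0.68) and Zfp827 (0.67), and for Gfra2 Sfmbt2 (0.73), Nptx1 (0.72) and Clstn2 (0.72). Erbb4 had the weakest neighbours, Zswim5 (0.68), Elovl5 (0.61) and Mafa (0.55). For Fgfr1 they were Tmtc1 (0.79), Sept6 (0.78) and Rbfox2 (0.77), and for Fgfr2 Clasrp (0.88), Acss2 (0.87) and Fbl (0.86). Ntrk2 had Nol4 (0.95), Dclk2 (0.94) and Lsamp (0.94), and Ntrk3 had Syne1 (0.89), Cxxc4 (0.88) and Lsamp (0.84). Of these 30 genes, 9 were also among the 3 highest by Spearman correlation, so most of the choices depend on the measure.

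Differences between groups of libraries were tested in neurons with edgeR's quasi-likelihood test on counts summed per library, and p-values were adjusted by the Benjamini-Hochberg method over all 11601 genes tested. The p-values measure the spread between these libraries only. Egfr and Fgfr3 fell below the filter on low counts, with at most 7.58 and 4.29 CPM in neurons of any library, which left 8 of the 10 receptors. For groups with a single library, the spread was taken from the replicated ones. In sums over all neurons, fewer cells of a type and less RNA per cell cannot be told apart. Fits within the DE or VEP name family, which hold fewer subtypes, are given for some receptors.

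**Figure D3:**
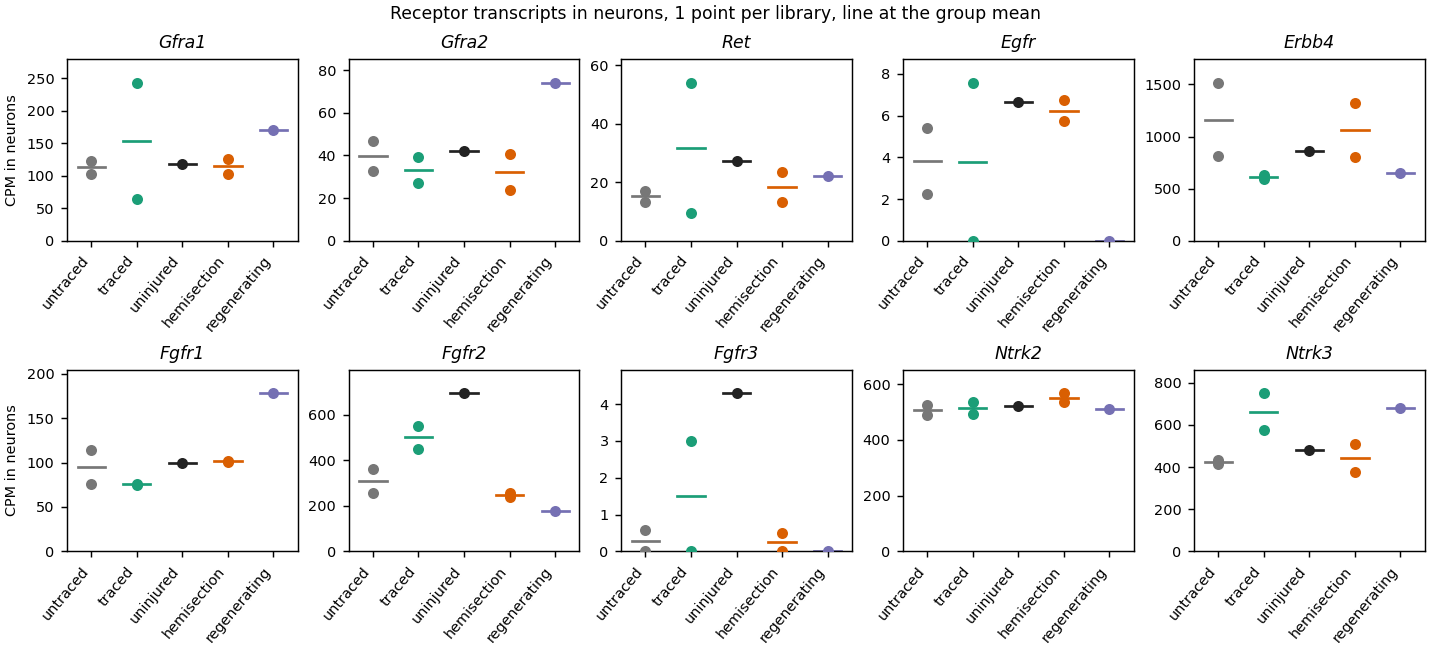
CPM of each receptor in the neurons of each library (points) by group, with a line at the group mean; each panel has its own axis from 0. Fgfr2 is highest in the uninjured library of experiment 2 (695 CPM), traced Erbb4 lies below both untraced values, and Ntrk2 differs little between libraries.

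Traced and untraced neurons were compared to ask whether uninjured neurons that project to walking centres of the lumbar cord differ in receptor levels from other neurons of the same cords. None of the receptors passed the test, which did not pair the libraries (0 of 8, against 0.362% of all genes), and 3 had an unadjusted p under 0.05. Erbb4 measured 590 and 636 CPM in traced replicates 1 and 2 (613 ± 32.2 CPM, SD, n = 2) and 809 and 1515 CPM in untraced replicates 1 and 2 (1162 ± 499 CPM, SD, n = 2). Both traced values lay below both untraced values. The log2 fold change was −1.0 (SE 0.30, adjusted p = 0.227 by edgeR), and 27.5% of the Erbb4 UMIs of untraced replicate 2 came from 1 nucleus. Without untraced replicate 1 the gene passed, at −1.43 with an adjusted p of 0.0195 by edgeR, and without untraced replicate 2 it was −0.43 and not called. Within neurons of the excitatory VEP name family, which made up 38.8% and 24% of traced and 7.35% and 4.88% of untraced neurons, the log2 fold change was 0.70 in the opposite direction and not called.

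Fgfr2 measured 553 and 450 CPM in traced replicates 1 and 2 and 361 and 256 CPM in untraced replicates 1 and 2. The groups did not overlap, with a log2 fold change of 0.65 (SE 0.20, adjusted p = 0.248 by edgeR). Ntrk3 measured 577 and 750 CPM in traced and 432 and 416 CPM in untraced replicates 1 and 2. Again the groups did not overlap, with a log2 fold change of 0.56 (SE 0.19, adjusted p = 0.360 by edgeR). The summed oligodendrocyte markers were 72.3 and 72.0 CPM in traced neurons and 229 and 254 CPM in untraced ones. Median depth was 16489.5 and 12138 UMIs in traced and 8522 and 5767 UMIs in untraced neurons of replicates 1 and 2. The part of glial RNA and of depth in these differences was not tested.

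Gfra1 and Ret differed widely within the traced group. Gfra1 measured 64.7 and 243 CPM in traced and 103 and 123 CPM in untraced replicates 1 and 2, and Ret 9.64 and 54.0 CPM against 17.1 and 13.4 CPM. The groups overlapped for both genes. Traced replicate 2 held 25 neurons, and 1 nucleus gave 9 of its 18 Ret UMIs. Ntrk2 measured 494 and 537 CPM in traced and 489 and 527 CPM in untraced replicates 1 and 2. Its log2 fold change was −0.05 (SE 0.18, adjusted p = 0.999 by edgeR), the smallest difference of the 8 receptors. Gfra2 and Fgfr1 had log2 fold changes of −0.15 and −0.34 with adjusted p-values of 0.979 and 0.827 by edgeR.

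The comparison of hemisected with uninjured cord asked which receptors differ in neurons after injury with natural repair. Fgfr2 was lower after hemisection, and it was the only one of the 8 tested receptors that passed, against 5.56% of all genes, and 4.61% in that direction. It measured 258 and 240 CPM in hemisection replicates 1 and 2 (249 ± 12.9 CPM, SD, n = 2) and 695 CPM in the uninjured library, which lay above both. The log2 fold change was −1.36 (SE 0.23, adjusted p = 0.00198 by edgeR). The untraced neurons of experiment 1 are a second uninjured reference, chosen as an alternative, with 361 and 256 CPM. Against them the log2 fold change was −0.30 (SE 0.20, adjusted p = 1 by edgeR), with 0.19% of all genes called. The uninjured library itself exceeded the untraced ones by a log2 fold change of 1.07 (SE 0.23, adjusted p = 0.0202 by edgeR, with 2.58% of all genes called and 2.07% in that direction), a comparison added after the data were seen.

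Oligodendrocyte markers, like Fgfr2, were higher in neurons of the uninjured library than in those of both hemisection libraries. Between hemisection replicates 1 and 2 their order was opposite to that of Fgfr2 (258 and 240 CPM). The summed level of 8 oligodendrocyte markers in neurons was 76.5 and 172 CPM in hemisection replicates 1 and 2 and 727 CPM in the uninjured library, and all 8 passed as lower after hemisection. In the uninjured library 0.512% of neurons, 11 nuclei, had no UMI of the astrocyte and oligodendrocyte markers, against 51.4% and 15.7% in hemisection replicates 1 and 2. In such neurons the Fgfr2 log2 fold change was −1.01 (SE 0.44, adjusted p = 0.528 by edgeR). With neurons of the excitatory DE name family alone Fgfr2 kept its call (−1.27, adjusted p = 0.0174 by edgeR), and with the VEP family alone it was −1.77 with an adjusted p of 0.0623 by edgeR. The part of glial RNA in the Fgfr2 difference was not tested beyond these values.

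The other 7 receptors did not pass in neurons after hemisection. Ntrk2 measured 567 and 537 CPM in hemisection replicates 1 and 2 and 520 CPM in the uninjured library, and Ntrk3 510 and 379 CPM against 482 CPM. Their log2 fold changes were 0.20 (SE 0.21) and 0.0013 (SE 0.23). Gfra1 measured 126 and 103 CPM against 119 CPM, and Ret 23.6 and 13.4 CPM against 27.3 CPM. Erbb4 measured 800 and 1326 CPM against 865 CPM, with a log2 fold change of 0.42 (SE 0.36, adjusted p = 0.582 by edgeR). The uninjured value lay between the hemisection values for Gfra1, Erbb4 and Ntrk3, and above both for Ret and Gfra2.

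**Figure D4:**
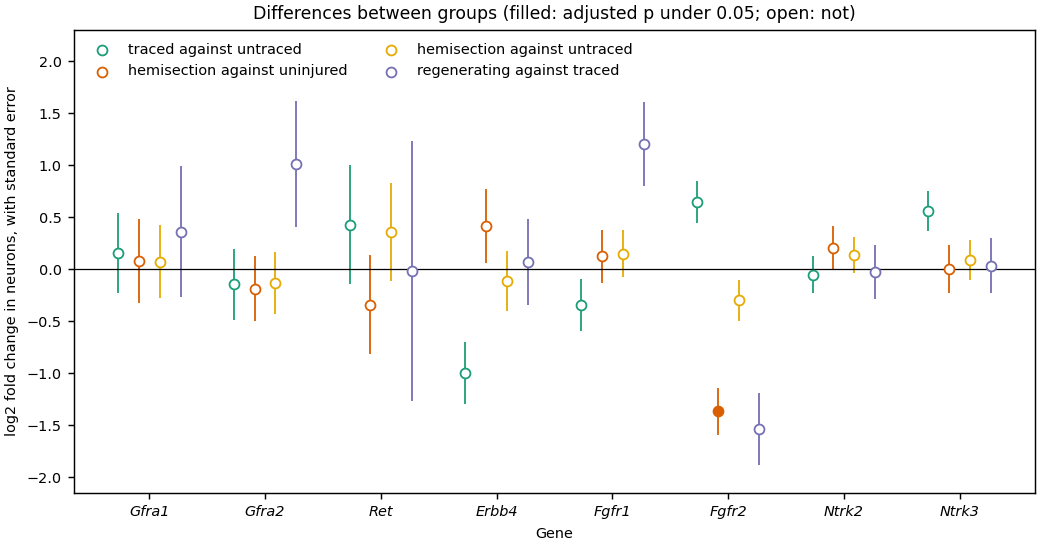
log2 fold change in neurons with its standard error for the 8 tested receptors in 4 comparisons; a filled point has an adjusted p under 0.05. The only filled point is Fgfr2 in hemisection against uninjured (−1.36), while against the untraced libraries the same gene lies at −0.30.

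The comparison of regenerating with uninjured traced neurons asked which receptors differ in neurons that regenerated. The regenerating and traced libraries come from different experiments, so experiment and regeneration cannot be told apart here. None of the 8 receptors passed, against 0.276% of all genes, and 2 had an unadjusted p under 0.05. In simulated data this comparison recovered 16.1% of the genes that had been changed, against 79.5% for traced and 88.7% for hemisection neurons. A receptor that did not pass here may therefore still differ. The regenerating neurons gave 135012 UMIs in all, so that 3 counts correspond to 22.2 CPM. The median log2 fold change of all genes in this comparison was −0.28.

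Fgfr2 measured 178 CPM in the regenerating library (24 UMIs in 23 of 238 nuclei), against 553 and 450 CPM in traced replicates 1 and 2. The regenerating value lay below both. The log2 fold change was −1.54 (SE 0.35, adjusted p = 0.106 by edgeR). Fgfr2 passed with a block for the animals of the traced and untraced libraries (−1.51, adjusted p = 0.0376 by edgeR), which pairs the regenerating library with none of them, with the groups compared alone (−1.47, 0.0424) and with no filter on low counts (−1.56, 0.0019). After thinning to 500 UMIs, a UMI was found in 8.85% of 113 regenerating neurons and in 23.8% and 20% of traced ones, and without thinning in 9.66%, 91.3% and 88%.

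Fgfr1 measured 178 CPM in the regenerating library and 75.8 and 75.0 CPM in traced replicates 1 and 2, with a log2 fold change of 1.20 (SE 0.40, adjusted p = 0.219 by edgeR). The regenerating value was above both, but 10 of its 24 UMIs came from 1 nucleus. Gfra2 measured 74.1 CPM (10 UMIs in 5 nuclei) against 39.3 and 27.0 CPM, with a log2 fold change of 1.02 (SE 0.61, adjusted p = 0.432 by edgeR). Ntrk2 measured 511 CPM against 494 and 537 CPM, and Ntrk3 681 CPM against 577 and 750 CPM. Both regenerating values lay between the traced ones, with log2 fold changes of −0.03 (SE 0.26) and 0.04 (SE 0.27). Gfra1 (170 CPM) also lay between them, as did Ret with 3 UMIs in all. Erbb4 (652 CPM) was slightly above both. No UMI of Egfr or Fgfr3 was found in the 238 nuclei, which at 3 counts allows up to 22.2 CPM.

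Of the non-neuronal classes, microglia and oligodendrocytes held at least 20 nuclei in each library of experiment 2 and were tested. In microglia, Erbb4, Ntrk2 and Ntrk3 lay lower in the hemisection libraries than in the uninjured one, 3 of the 4 receptors tested, against 20.4% of all genes, and 13% in that direction. Erbb4 measured 24.2 and 27.2 CPM in hemisection replicates 1 and 2 and 265 CPM in the uninjured library (−3.28 on the log2 scale, SE 0.45, adjusted p = 4.3e-08 by edgeR). Ntrk2 measured 48.3 and 13.6 CPM against 78.5 CPM (−2.10, SE 0.62, adjusted p = 0.00887 by edgeR). Ntrk3 measured 12.1 and 2.40 CPM against 86.3 CPM (−4.67, SE 0.81, adjusted p = 7.14e-06 by edgeR). The uninjured library was above both hemisection libraries for each of the 3 genes. In microglia of hemisection replicate 1, 3 counts correspond to 36.2 CPM, above its Erbb4 and Ntrk3 values. In replicate 2 they correspond to 2.40 CPM, the Ntrk3 value there. Ntrk3 met the filter on low counts only through the uninjured library, where it was high, so nothing is read from its call. Without hemisection replicate 2, which left the 32 microglia of replicate 1, Ntrk2 (−0.78) and Ntrk3 (−2.89) were no longer called.

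The uninjured library was also above the untraced ones. Untraced microglia measured 45 and 43.7 CPM of Erbb4, 12 and 17.5 CPM of Ntrk2 and 3.00 and 17.5 CPM of Ntrk3 in replicates 1 and 2. Against them 0 of the 4 receptors passed by edgeR, none had an unadjusted p under 0.05 (0), and 7.68% of all genes were called. Summed neuron markers (7 genes) in microglia were 1087 CPM in the uninjured library, 157 and 47.2 CPM in hemisection replicates 1 and 2 and 72.0 and 163 CPM in untraced replicates 1 and 2. Slc17a6, Gad1 and Gad2 were at 0 in hemisection replicate 1, and Gad1 was at 0 in untraced replicate 2. The part of neuronal RNA in the levels of these neuronal receptors in microglia was not tested.

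**Figure D5:**
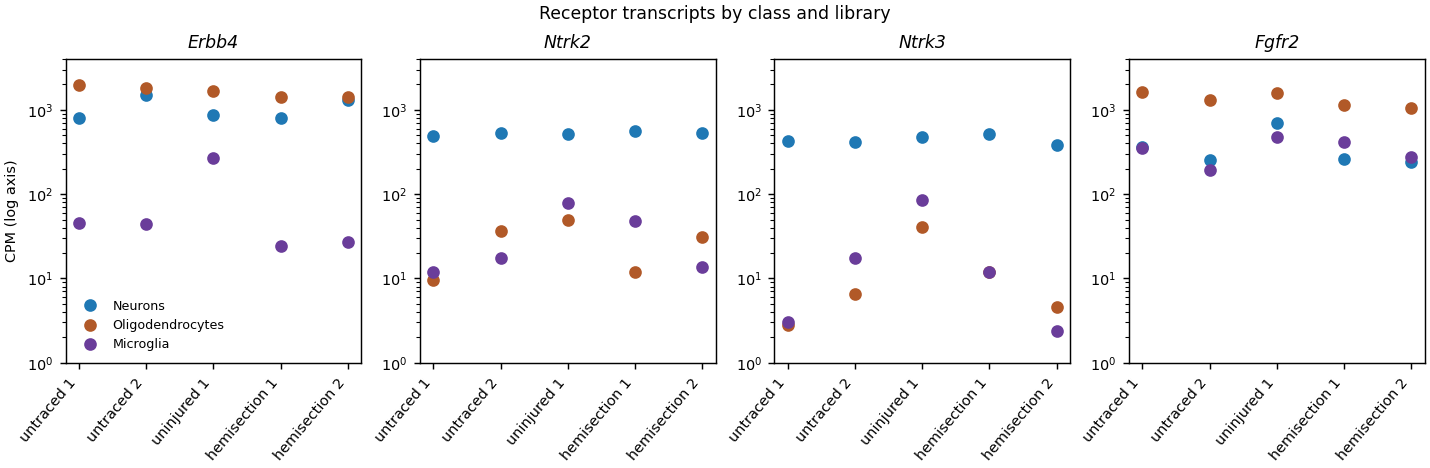
CPM (log axis) of 4 receptors in neurons, oligodendrocytes and microglia of the untraced, uninjured and hemisection libraries, 1 point per library. In microglia Erbb4, Ntrk2 and Ntrk3 peak in the uninjured library; for Ntrk3 in hemisection replicate 1 the oligodendrocyte point (12 CPM) lies under the microglia point (12.1 CPM).

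In oligodendrocytes 1 of 8 receptors passed, against 7.61% of all genes and 4.77% in the lower direction. Ntrk3 measured 12 and 4.58 CPM in hemisection replicates 1 and 2, 2 and 8 UMIs, and 40.2 CPM in the uninjured library (−2.75, SE 0.67, adjusted p = 0.016 by edgeR). Untraced oligodendrocytes measured 2.76 and 6.52 CPM, so that the uninjured library again stood above all others. Without hemisection replicate 2 the value was −1.71 and not called. Summed neuron markers in oligodendrocytes were 921 CPM in the uninjured library and 218 to 332 CPM in the hemisection and untraced libraries.

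Erbb4 and Fgfr2 are the receptors with high levels in oligodendrocytes. Erbb4 measured 1433 and 1406 CPM in hemisection replicates 1 and 2, 1696 CPM in the uninjured library and 1964 and 1825 CPM in untraced replicates 1 and 2. Both hemisection values lay below all 3 uninjured ones. Its log2 fold change was −0.19 (SE 0.18, adjusted p = 0.621 by edgeR) against the uninjured library and −0.56 (SE 0.15, adjusted p = 0.0426 by edgeR) against the untraced ones, where it passed as 1 of 8 against 3.01% of all genes and 0.931% in that direction. For Fgfr2 both hemisection values also lay below all 3 uninjured ones, with log2 fold changes of −0.48 (SE 0.19, adjusted p = 0.143 by edgeR) and −0.58 (SE 0.16, adjusted p = 0.0591 by edgeR). The hemisection libraries come from another experiment than the untraced ones, and experiment and injury cannot be told apart there.

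Whether the hemisection effect differed between classes was tested as an interaction over the libraries of experiment 2, where all 10 receptors entered the fit through their counts in neurons or a class. In microglia against neurons 4 of the 10 receptors were called, all lower, against 10.8% of all genes and 7.97% in that direction. These were Erbb4, Ntrk2, Ntrk3 and Fgfr1. Ntrk3 passed the filter on low counts in microglia only through the uninjured library, where it was high, so nothing is read from its call. Fgfr1 had 0 and 7 UMIs in microglia of hemisection replicates 1 and 2 and 28 in the uninjured library. It met the filter only through neurons, so nothing is read from its call either. The effect in oligodendrocytes against that in neurons passed for 1 of the 10 receptors, Ntrk3, against 4.28% of all genes and 2.76% in the lower direction. With the untraced libraries as the uninjured reference, an alternative chosen after the data were seen, 0 of 10 passed in either class by edgeR.

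The ligands and other pathway genes were read from 7 lists beside these receptors. No gene of any list passed in traced or regenerating neurons by edgeR (0 of 51 tested in each, with 8 and 2 at an unadjusted p under 0.05). After hemisection 2 of 51 passed in neurons against the uninjured library, a share below the 5.56% of all genes. Fgf1, a ligand of all FGF receptors, was lower (−1.88, SE 0.33, adjusted p = 0.00272 by edgeR; 1 of 6 secreted FGFs tested), and Spred1, an inhibitor of ERK signalling, was higher (0.81, SE 0.23, adjusted p = 0.0492 by edgeR; 1 of 13 feedback inhibitors and ERK targets tested). The uninjured library differed from the untraced ones in the same genes, by 1.97 for Fgf1 and −1.09 for Spred1. Against the untraced libraries neither passed after hemisection (0.09 and −0.28). The median log2 fold change was −0.39 over the secreted FGFs and 0.51 over the feedback list, against 0.03 over all genes.

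In microglia after hemisection 7 of 29 list genes passed against the uninjured library, a share near the 20.4% of all genes, and summed neuron markers were 1087 CPM in that library against 47.2 to 163 CPM in the hemisection and untraced ones. The neuregulins Nrg1 (−3.28) and Nrg3 (−2.95), which are ligands of Erbb4, were lower than in the uninjured library (2 of 4 ligands tested). The neurotrophin sorting receptor Sort1 (−1.16), the adhesion protein Ncam1 (−2.81) and the adaptors Gab1 (−1.61) and Dok6 (−2.67) were also lower, while the adaptor Gab2 was higher (0.96). Of these 7 genes, Sort1 (−1.36, adjusted p = 0.00755 by edgeR) and Gab1 (−1.78, adjusted p = 0.000719 by edgeR) also passed against the untraced libraries. In oligodendrocytes 4 of 50 list genes passed, a share near the 7.61% of all genes, with summed neuron markers of 921 CPM in the uninjured library. Nrg1 (−2.31), Nrg2 (−2.78) and Nrg3 (−2.21) were lower (3 of 8 ligands tested) and Gab2 was higher (0.79), and none of them passed against the untraced libraries (0 of the 4).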

How the data were processed

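Nuclei were profiled by single-nucleus RNA-seq with 10x v3 chemistry in 8 libraries. The UMI counts per gene and nucleus and the cell type annotation were deposited by the authors. Cell Ranger 4.0.0, Seurat 3 and the builds mm10 and GRCm38 are named in the submitters' processing notes. The sources used here name no filter on nuclei, doublet removal, gene annotation for counting or way of assigning cell types, and no further filter or doublet caller was applied. The members, gene lists and tests were chosen with earlier results of these data known.

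Counts were summed per library and class and scaled to CPM, counts per 1000000 UMIs. Shares carry 95% Clopper-Pearson intervals, which like the floor of 3 counts cover counting error only, and were repeated after thinning to 1000 or 500 UMIs per nucleus, with shallower nuclei left out. Tests used edgeR 4.0.16 in R 4.3.3 (quasi-likelihood, TMM scaling, filterByExpr with a minimum count of 10 and total of 15), with the Benjamini-Hochberg threshold at 0.05. Neurons of 8 libraries in 5 groups entered 1 fit, which leaves 3 residual degrees of freedom; the classes and the interaction were fitted separately. The neuron comparisons of traced, hemisection and regenerating libraries and the class comparisons with the uninjured library were tested on simulated data, the interaction was not. Changed genes were set 4-fold higher or lower there, with the same spread for every gene, which was not taken from these libraries. Of these genes, 79.5%, 88.7% and 16.1% were recovered in the neuron comparisons in that order, 69.7% in microglia and 68.9% in oligodendrocytes. The labels do not say how many animals stand behind a library. Likeness used cell types with at least 50 nuclei and genes with at least 50 CPM in a type. The receptors, 3 genes most like each, genes of the fixed lists that passed and markers were named. Python 3.11.15 with numpy 2.4.6, pandas 2.3.3 and scipy 1.17.1 was used, with limma 3.58.1 and DESeq2 1.42.0 (an alternative). Alternatives changed the scaling, filter, tool, neurons, samples, reference and replicate block.

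Traced and untraced libraries with the same number share their animal label (healthy1 or healthy2) and a nucleus-name prefix. They were paired only in the alternative with a replicate block, and the main fit held no pairing. Their deviations correlated at r = 0.099 over 11601 genes.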

Additional observations from a re-analysis of the deposited data

Results flagged for a closer look

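The hemisection effect in microglia differed from that in neurons for 3 receptors that passed the filter on low counts in microglia when the difference itself was tested as an interaction, with edgeR's quasi-likelihood test and Benjamini-Hochberg adjustment. The difference in log2 fold change, microglia minus neurons, was −3.56 for Erbb4 (SE 0.68, adjusted p = 1.33e-05), −2.13 for Ntrk2 (SE 0.62, adjusted p = 0.00937) and −4.28 for Ntrk3 (SE 0.78, adjusted p = 5.81e-06). For Fgfr1 it was −2.32 (SE 0.80, adjusted p = 0.0365), but Fgfr1 had 0 and 7 UMIs in microglia of hemisection replicates 1 and 2 and 28 in the uninjured library and met the filter only through neurons, so nothing is read from this value. In oligodendrocytes against neurons it was −2.47 for Ntrk3 (SE 0.66, adjusted p = 0.00871). Both hemisection libraries lay on the lower side of the uninjured library in microglia for Erbb4, Ntrk2 and Ntrk3. Ntrk3 passed the microglia filter only through the uninjured library, where it was high, so nothing is read from its microglia value. With the untraced libraries as the reference, the values in microglia were −0.77 for Erbb4, 0.0089 for Fgfr1, 0.11 for Ntrk2 and −1.58 for Ntrk3, and in oligodendrocytes 0.42 for Ntrk3, with adjusted p-values from 0.586 to 1. Summed neuron markers in microglia and oligodendrocytes were highest in the uninjured library, at 1087 and 921 CPM, and their part in these values was not tested.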

How the results depend on the processing

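Over 56 results on single receptors, 349 alternatives were computed: 274 kept direction and side of the threshold, 55 reversed, 13 fell below it and 7 passed it. With 1 or 2 libraries a group, 25 traced neurons and 135012 UMIs in the regenerating library, small differences were not detectable at this depth. For regenerating against traced neurons most changes set in simulated data were missed as well, with 16.1% recovered. The cause of the changes below was not tested.

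The number of receptors called by edgeR changed as follows. For traced against untraced neurons (0), it was 1 without a filter and 0 to 1 with a library left out. For hemisection against uninjured neurons (1), it was 2 without a filter and 2 with the groups compared alone, and 0 in neurons without glial marker UMIs, 0 in VEP neurons and 0 against the untraced libraries. For regenerating neurons (0), it was 1 without a filter and 1 with the groups compared alone. In microglia (3) it was 0 against the untraced libraries, 1 with DESeq2 and 1 to 3 with a library left out. In oligodendrocytes (1) it was 2 without a filter, 0 with DESeq2 and 0 to 1 with a library left out. For the interactions it went from 4 (Fgfr1 among them) and 1 to 0 and 0 against the untraced libraries. Leaving out a hemisection library leaves the interaction fit no residual degrees of freedom, so that alternative was not run.

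The replicate block pairs traced with untraced libraries of an animal and no other library, so it reaches the other comparisons through the shared fit. With it, 1 receptor was called in regenerating neurons, Fgfr2 at −1.51, and the pairing changed no other receptor's call. All genes called went with the block from 42 to 141 in traced, from 645 to 1344 in hemisection and from 32 to 44 in regenerating neurons.

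Directions that reversed in traced neurons were those of Gfra1 (−1.33 without glial marker UMIs, −1.30 in DE, −0.089 in VEP neurons), Gfra2 (0.52 without glial marker UMIs, 0.21 in VEP), Ntrk2 (0.046 in DE, 0.0094 in VEP), Erbb4 (0.70 in VEP) and Fgfr1 (0.075 in VEP). With a library left out, Gfra1 ran from −0.82 to 1.00, Gfra2 from −0.62 to 0.12, Ntrk2 from −0.16 to 0.043 and Ret from −0.73 to 1.65.

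After hemisection in neurons, they were those of Ntrk3 (−0.067 with RLE scaling, −0.0076 without a filter, −0.065 with DESeq2, −0.28 in DE), Gfra1 (−0.00037 with DESeq2), Gfra2 (0.76 without glial marker UMIs, 0.0028 in VEP), Erbb4 (−0.40 in VEP, −0.11 against untraced), Fgfr1 (−0.36 in VEP) and Ret (0.36 against untraced). With a library left out, Ntrk3 ran from −0.20 to 0.17, Gfra1 from −0.052 to 0.18, Gfra2 from −0.67 to 0.034 and Erbb4 from −0.026 to 0.76.

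In regenerating neurons, they were those of Ret (0.051 with RLE), Ntrk2 (0.041 with RLE, 0.024 with DESeq2, 0.037 with the groups compared alone, 0.40 in DE), Ntrk3 (−0.031 without glial marker UMIs, −0.36 in VEP) and Gfra2 (−0.90 in VEP). With a library left out, Ret ran from −1.23 to 1.11, Ntrk3 from −0.083 to 0.15 and Gfra1 from −0.46 to 1.30.

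Against the untraced libraries, Fgfr2 (0.17) and Ntrk2 (0.24) reversed in microglia, and Egfr (0.15), Fgfr1 (0.20), Ntrk2 (0.30) and Ntrk3 (0.38) in oligodendrocytes. In the interactions, Gfra1 (0.42), Ret (4.40), Fgfr1 (0.0089) and Ntrk2 (0.11) reversed for microglia, and Ret (0.80), Fgfr2 (−0.35), Ntrk2 (0.33) and Ntrk3 (0.42) for oligodendrocytes.

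Thinning to 1000 UMIs lowered the shares of nuclei with a UMI to 42.9% for Gfra1 and 14.3% for Ret in MN, 11.3% for Gfra2 in DI_Nxph1_Npy, 24.9% for Egfr and 39.6% for Fgfr3 in astrocytes, 14.5% for Fgfr1 in vascular cells, 75.2% for Fgfr2 in oligodendrocytes, 57.7% for Ntrk2 in DE_Reln_Trhr and 53.5% for Ntrk3 in DE_Rora. With libraries weighted equally, Ntrk2 in DE_Reln_Trhr was 855 CPM.

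All genes called moved from 42 to 234 without a filter, 18 in DE, 1 in VEP, 1 without glial marker UMIs and 19 to 93 with a library left out in traced neurons. After hemisection in neurons they moved from 645 to 1101, 272, 78 and 1 in the same order, 171 to 327 with a library left out, 2413 with the groups compared alone, 22 against untraced and 136 with DESeq2. In regenerating neurons they moved from 32 to 185, 19, 4 and 0 in that order, 0 to 28 with a library left out and 88 with the groups compared alone. In microglia they moved from 1686 to 335 with DESeq2, 636 against untraced and 412 to 1840 with a library left out, and in oligodendrocytes from 907 to 254, 359 and 106 to 784. The interactions went from 1409 to 308 and from 559 to 110 against untraced.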
